A study of Mus musculus with 22 samples.

Results

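The genes described here belong to families of RNA splicing regulators, read in mRNA of the mouse optic nerve that was immunoprecipitated to enrich for astrocytes. They were chosen by name: protein-coding genes of the SR protein (Srsf, Tra2), Scaf, Clk, Hnrnp, Rbm, Rbfox, Ptbp and Celf families and Qk, with Rbmy genes left out. A name does not show that each member regulates splicing, and some, such as the nucleolar proteins Rbm19 and Rbm28, are described below by other traits. The rule found 92 of the 29367 genes in the count table. By role, 13 were SR proteins, 4 SCAF factors, 4 CLK kinases, 20 hnRNPs, 38 RBM proteins and 13 belonged to the Rbfox, Ptbp, Celf and Qk group. Ribosome-bound mRNA was immunoprecipitated from ribotag mice (Rpl22 HA/HA, B6J.129(Cg)-Rpl22tm1.1Psam/SjJ) crossed to a GFAP-Cre line (Tg (GFAP-Cre) 73.12Mvs/J, on B6.Cg), so that HA-tagged ribosomes were made in cells in which the GFAP promoter of that line had driven Cre. All mice were 3 to 4 months old and had received microbeads in 1 eye to raise intraocular pressure, and the 4 groups differed in region (the unmyelinated optic nerve head, ONH, or the myelinated optic nerve proper, ONP) and in time (7 or 30 days after the injection). Each library pooled 4 mice (2 male and 2 female), with 7 replicates per region at 30 days and 4 libraries per region at 7 days, 22 in all, and uninjured mice were not analysed here. Both regions were dissected from the same mice, but no source used here ties the number of an ONH pool to that of an ONP pool.

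Splicing regulators decide which exons of a pre-mRNA are kept. SR proteins mostly bind exonic enhancers and promote inclusion, hnRNPs often silence exons, and CLK kinases phosphorylate SR proteins and so release them from nuclear speckles. SCAF factors carry SR-like domains and bind the C-terminal domain of RNA polymerase II, while Rbfox, Ptbp, Celf and Qk proteins set tissue-specific programs, with Qk best known for myelin and glial transcripts. Many of these genes control their own level through poison exons or retained introns, whose transcripts are degraded by nonsense-mediated decay (NMD). A count per gene sums all of its transcripts, so a change in such an isoform cannot be told apart from a change in the coding mRNA.

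That feature was visible in the annotation. In GENCODE M21, 45 of the 92 members (48.9%) had at least 1 transcript annotated as an NMD target, against 24% of 18183 protein-coding genes. Among protein-coding genes tested between the regions at 30 days, the share was 27.8%, against 49.4% of the members tested there. All 4 CLK genes and 11 of the 13 SR protein genes had such a transcript, against 12 of the 38 RBM genes. Retained introns were annotated in 69.6% of the members and in 48.9% of protein-coding genes, and in 69.7% and 57.2% of those tested at 30 days. Members also had more annotated transcripts, with a median of 7 beside 4 over protein-coding genes and 5 over those tested.

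Libraries held 16292489 to 33307092 counts, and members took 0.603% to 0.801% of them. Levels are given in CPM (counts relative to the library's total) scaled with edgeR's TMM factors. A library's 3 counts, taken as the smallest detectable amount, corresponded to 0.0901 to 0.184 CPM. Of the 92 members, 85 averaged at least 1 CPM, 67 at least 10 CPM and 20 at least 100 CPM. Only 10 fell to 3 counts or fewer in any library, among them Rbm44 in 19 libraries and the neuronal regulator Rbfox3 in 17. In 17 members, at least 20% of the 31-base words of the transcripts also occurred in another gene, so their counts could have been split. The share was largest in Rbm42 (74.4%), and Hnrnpf (66.2%) and Hnrnpk (21.1%) were among them.

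Several libraries stood apart. Short genes (under 2486 exonic bases) deviated from the mean of all libraries by a median of 0.41 on the log2 scale in ONH 30 day replicate 6 and 0.34 in library 5 of the 7 day ONH, and by -0.25 to -0.28 in the 4 ONP libraries of 7 days. Microglia and macrophage markers were highest in ONH 30 day replicate 7 and ONP 30 day replicates 5 and 7. In the 7 day ONH, 6 nuclear retained long RNAs, with Malat1 the most abundant, summed to 5406 CPM in library 5 and 699 to 814 CPM in the others. Photoreceptor markers summed to 6553 CPM in library 6 of that group and 221 to 2128 CPM in the others. Defining astrocyte markers were present in all groups: Gfap averaged 13142 ± 5054, 12683 ± 3003, 12855 ± 2450 and 18385 ± 4228 CPM (SD) in the 7 day ONH, 30 day ONH, 7 day ONP and 30 day ONP. In the same order, the summed level of 12 astrocyte markers averaged 24018 ± 6364, 24486 ± 4513, 22180 ± 3083 and 27906.5 ± 6687 CPM (SD). The summed level of 12 oligodendrocyte markers averaged 25555 ± 7816 CPM (SD, n = 4) in the 7 day ONH, 25080 ± 10547 (n = 7) in the 30 day ONH, 94979 ± 12051 (n = 4) in the 7 day ONP and 54322 ± 19862 (n = 7) in the 30 day ONP, with Mbp the most abundant and no marker at 0. In such pooled samples, fewer cells of a type and less RNA per cell cannot be told apart.

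Levels per length spanned several orders of magnitude. On the scale of CPM per kb of exon, averaged over all libraries, the highest members were the hnRNPs Hnrnpk (108), Hnrnpf (106) and Hnrnpc (86). Hnrnpk binds C-rich sequence, and Hnrnpc binds uridine tracts. The leading SR protein was Srsf5 (38.6), the leading RBM protein Rbm42 (74), the leading SCAF factor Scaf11 (5.09) and the leading kinase Clk3 (8.42). Qk led its group at 36.7 CPM per kb, above Ptbp1 (14.4) and Celf1 (8.02). Ptbp3 (2.56), Celf2 (2.26) and Ptbp2 (1.76) followed, and Rbfox2 reached 0.892. The regulators best known from neurons were low: Celf4 at 0.576, Rbfox1 at 0.181, Celf6 at 0.123, Celf3 at 0.116, Celf5 at 0.0726 and Rbfox3 at 0.0329 CPM per kb.

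By group, and as a description with no test, Hnrnpk averaged 111 CPM per kb in the 7 day ONH, 99.4 in the 30 day ONH, 116 in the 7 day ONP and 111 in the 30 day ONP. In the same order of groups, Rbm42 averaged 82.5, 70, 81.7 and 68.5 CPM per kb, and Ptbp1, a widely expressed exon repressor, 15.1, 12.2, 14.6 and 16.1. Srsf5 varied more between groups, at 35.8 ± 8.23 (SD, n = 4), 51.7 ± 8.12 (n = 7), 20.5 ± 2.22 (n = 4) and 37.4 ± 5.88 (n = 7) CPM per kb. Ptbp3 averaged 2.94, 2.17, 3.32 and 2.32 CPM per kb, Rbfox2 1.3, 0.839, 0.719 and 0.812, and Celf1 7.23, 7.29, 8.65 and 8.85. Rbfox1, Rbfox3, Celf3, Celf5 and Celf6 averaged at most 0.312 CPM per kb in any group.

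**Figure D1:**
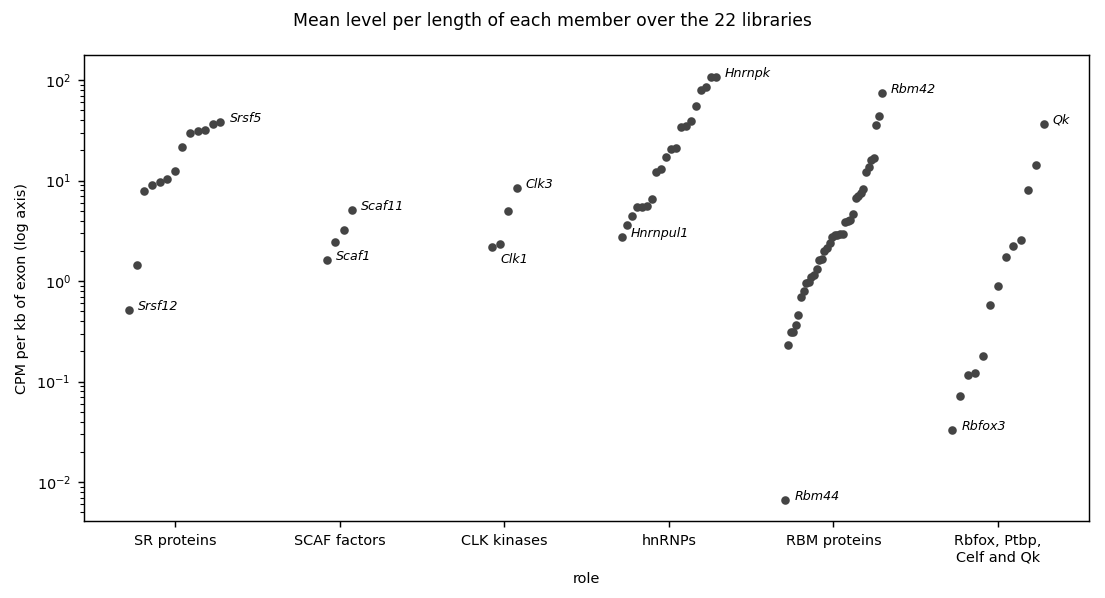
Mean level of each of the 92 members over the 22 libraries in CPM per kb of exon, on a log axis, with each point a gene and genes grouped by role and sorted. The hnRNPs reached the highest levels (Hnrnpk at 108), and the Rbfox, Ptbp, Celf and Qk group ran from Qk at 36.7 down to Rbfox3 at 0.0329.

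The tests asked whether members differed between days within a region, between regions at a day, and whether the change over time differed between the regions. They were run with edgeR's quasi-likelihood test on all genes. The p-values were adjusted by Benjamini-Hochberg across every gene tested, and calls were made at a threshold of 0.05. Of all genes tested, 0% were called in the ONH over time and 17% in the ONP, 13.2% between the regions at 7 days and 41.8% at 30 days, and 0.543% in the interaction. Of the 92 members, 85 were tested in every pairwise comparison and 2 in none. In all, 41 of 90 tested in any pairwise comparison were called in at least 1 (45.6%, beside 47.7% of all genes), 9 in at least 2 (10%, beside 16.4%) and 2, Scaf11 and Srsf5, in 3 (2.22%, beside 3.01%). By role, calls fell on 4 of 4 CLK kinases, 3 of 4 SCAF factors, 12 of 20 hnRNPs, 4 of 13 SR proteins, 13 of 37 tested RBM proteins and 5 of 12 tested genes of the Rbfox, Ptbp, Celf and Qk group. The comparisons share libraries, so that the values of a gene in them are not independent.

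Members with an annotated NMD transcript were called in 9 of 45 tested (20%) in the ONP over time, and the others in 6 of 44 (13.6%), beside 17% of all genes. Between the regions at 30 days the counts were 18 of 44 (40.9%) and 13 of 45 (28.9%), beside 41.8% of all genes, and at 7 days 6 of 44 (13.6%) and 0 of 43, beside 13.2%. The shares of members with such a transcript thus lay near those of all genes. No test was made of these differences, and the share of NMD transcripts in the counts was not measured.

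Qk and Scaf11 were the members whose change over time differed between the regions. In the interaction contrast (the 30 vs 7 day change in the ONP minus that in the ONH), 2 of 90 members tested were called, against 0.543% of all genes tested. Both had lower values in the ONP change than in the ONH change. At an unadjusted p under 0.05 there were 14 members, 3 of them higher (background 5.54%) and 11 lower (background 7.02%), against 12.6% of all genes. The median over the members was -0.07, beside 0.01 over all genes, and library size alone as the scaling shifted all genes by a median of 0.15 and kept both calls.

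Qk (ENSMUSG00000062078, chr17:10202601-10319854, minus strand, GRCm38), the KH-domain protein quaking, was low in the 7 day ONH and high in the other groups. It measured 332, 370, 329 and 277 CPM in the 7 day ONH and 456 to 626 CPM (median 535) in the 30 day ONH. In the ONP it measured 632, 643, 570 and 653 CPM at 7 days and 497 to 592 CPM (median 541) at 30 days. Every 7 day ONH library lay below every other library of the series. The log2FC for 30 vs 7 days was 0.75 ± 0.14 (SE) in the ONH and -0.22 ± 0.08 in the ONP, and neither passed the threshold (edgeR adjusted p = 0.18 and 0.0828). The difference between these changes was -0.97 ± 0.15 (adjusted p = 0.00469). At 7 days the ONH was below the ONP by a log2FC of -0.90 ± 0.15 (adjusted p = 0.00286), whereas at 30 days the difference was 0.04 ± 0.09 (adjusted p = 0.737).

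Oligodendrocytes also express Qk, so their markers are given beside it. Of the 12 markers, 12 were lower in the ONH than in the ONP at 7 days and 10 at 30 days. Between 7 and 30 days none was called in the ONH, with a median log2FC of 0.01 where Qk was at 0.75, and 9 fell in the ONP, with a median of -0.84 where Qk was at -0.22. At 30 days the marker sum still averaged lower in the ONH, though its ranges overlapped, at 13951 to 41388 CPM in the ONH and 26576 to 86864 CPM in the ONP. The Qk levels of the 30 day ONP lay within the range of the 30 day ONH. The part of oligodendrocyte mRNA in the Qk values was not tested.

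**Figure D2:**
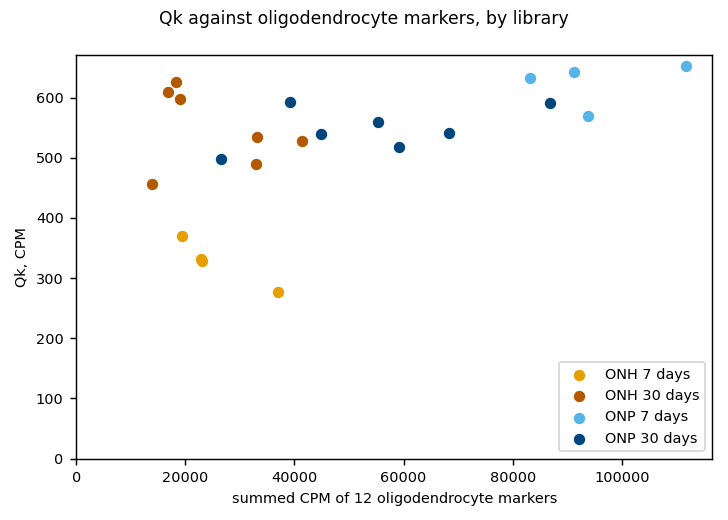
Qk in CPM (vertical axis) against the summed CPM of 12 oligodendrocyte markers (horizontal axis), with each point a library and colours for the 4 groups. The 7 day and 30 day ONH libraries shared a range of marker sums, with Qk at 277 to 370 CPM in the first and 456 to 626 CPM in the second.

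Scaf11 (ENSMUSG00000033228, chr15:96411699-96460843, minus strand), an SR-related factor that joins transcription to spliceosome assembly, had changes of opposite sign in the regions, of which the one in the ONP passed the threshold. It measured 44.2, 41.4, 51.9 and 41.1 CPM in the 7 day ONH and 47.2 to 66.2 CPM (median 54.9) in the 30 day ONH. In the ONP it measured 68.5, 77, 72.6 and 64.3 CPM at 7 days and 37.5 to 57.2 CPM (median 41.9) at 30 days. The ONP groups did not overlap, while 2 of the 30 day ONH replicates lay within the range of the 7 day ONH. It fell over time in the ONP (log2FC -0.71 ± 0.11, adjusted p = 0.00186), and its value in the ONH was 0.32 ± 0.14 (adjusted p = 0.355). The difference of these changes was -1.03 ± 0.18 (adjusted p = 0.0106). Scaf11 was lower in the ONH than in the ONP at 7 days (-0.63 ± 0.17, adjusted p = 0.0321) and higher at 30 days (0.37 ± 0.10, adjusted p = 0.009). The 7 day call was lost with the library number as a replicate block (log2FC -0.55, adjusted p = 0.244).

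Ptbp2 (ENSMUSG00000028134, chr3:119718742-119784466, minus strand), the paralogue of the exon repressor Ptbp1 that neurons and their precursors use, was lowest in the 7 day ONH and highest in the 7 day ONP. It measured 8.35, 9.06, 5.75 and 13 CPM in the 7 day ONH and 22.3, 28.3, 24.9 and 28.8 CPM in the 7 day ONP. At 30 days it ran from 10.5 to 21.1 CPM (median 11.9) in the ONH and from 11.7 to 21.8 CPM (median 16.8) in the ONP. The 7 day ONP libraries were above all others, while the 30 day groups overlapped. The interaction was -1.31 ± 0.32 and missed the threshold (adjusted p = 0.0606). Ptbp2 was called lower in the ONH at 7 days (-1.51 ± 0.27, adjusted p = 0.00448) and fell over time in the ONP (-0.68 ± 0.17, adjusted p = 0.0201). Rbm19, a nucleolar protein, and Hnrnpa3 had the next lowest p-values of the interaction, with -1.24 ± 0.39 (adjusted p = 0.158) and -0.72 ± 0.23 (adjusted p = 0.162). Ptbp1 itself was called in no comparison.

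**Figure D3:**
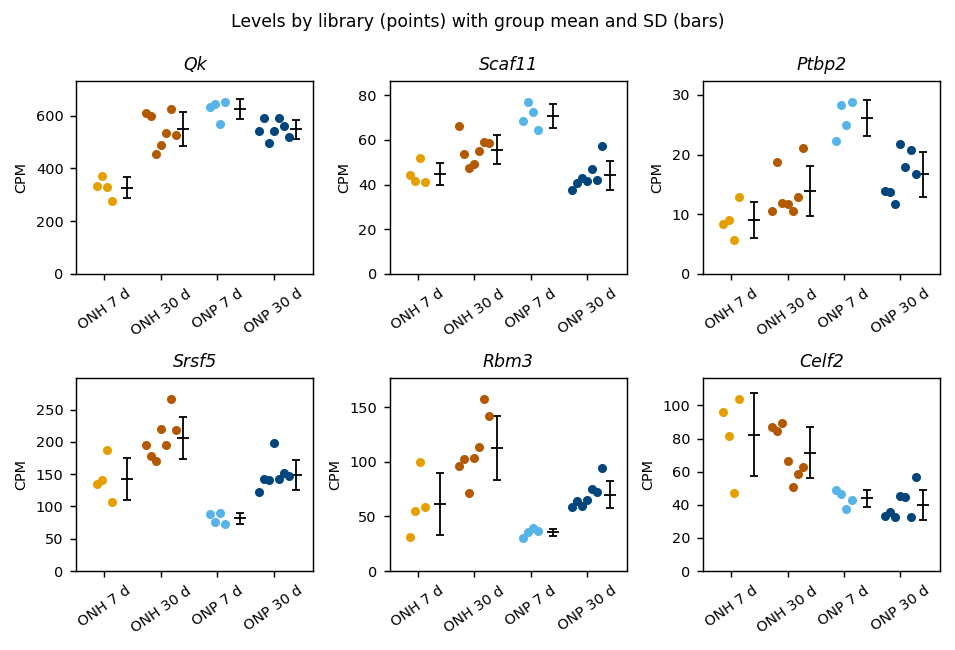
CPM of 6 members by library, with each point a library and the bar at the right of each group its mean and SD (n = 4 at 7 days, n = 7 at 30 days). Qk was lowest in the 7 day ONH (277 to 370 CPM), Scaf11 and Ptbp2 were highest in the 7 day ONP (64.3 to 77 and 22.3 to 28.8 CPM), and Srsf5 and Rbm3 were lowest there.

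Within the ONP, 15 of 89 members tested were called between 7 and 30 days (16.9%, beside 17% of all genes tested). Of these, 3 were higher at 30 days (background 7.82%) and 12 lower (background 9.21%). At an unadjusted p under 0.05, 5 were higher (background 15.6%) and 26 lower (background 16.9%). Groups without overlap were found in 2 members that were higher (6.58% of all genes) and 8 that were lower (5.55%). The median log2FC of the members was -0.12, beside -0.01 over all genes. With library size alone as the scaling, which moved the log2FC of all genes by a median of 0.11, 5 were higher and 6 lower. Leaving out a library gave 8 to 17 calls (8 without library 2 of 7 days), beside 1439 to 3214 over all genes.

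Markers of several other cell types fell in the ONP over the same time. Beside the 9 of 12 oligodendrocyte markers, 6 of 12 endothelial and mural markers were lower at 30 days (median log2FC -1.23), with a summed level of 490 ± 60.5 CPM (SD, n = 4) at 7 days and 272 ± 39.1 CPM (n = 7) at 30 days, Vtn the most abundant and none at 0. Of the markers tested, 3 of 8 for photoreceptors (-2.31), 2 of 4 for pigment cells (-0.34) and 1 of 6 for surface epithelium (-1.41) were lower as well. No marker was called for oligodendrocyte precursors (median log2FC 0.33), microglia and macrophages (-0.28) or fibroblasts and meningeal cells (-0.42). Of 12 astrocyte markers, 1 was higher and 2 lower (median log2FC 0.21). The part of other cell types in the members' changes was not tested.

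The rises over time in the ONP were in Rbm3, Srsf5 and Rbm8a. Rbm3 (ENSMUSG00000031167, chrX:8138975-8145880, minus strand), a cold-inducible RNA-binding protein, measured 30.7, 35.5, 39.1 and 36.4 CPM at 7 days and 58.7 to 94.5 CPM (median 65.5) at 30 days, so that the groups did not overlap. Its log2FC was 0.95 ± 0.13 (adjusted p = 0.00119). Srsf5 (ENSMUSG00000021134, chr12:80945504-80950507, plus strand), an SR protein that promotes exon inclusion, measured 88, 76, 90.2 and 72.2 CPM at 7 days and 122 to 198 CPM (median 143) at 30 days. Its groups did not overlap either, and its log2FC was 0.84 ± 0.13 (adjusted p = 0.00187). Rbm8a, a core protein of the exon junction complex, had overlapping groups and a log2FC of 0.29 ± 0.09 (adjusted p = 0.0474).

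In the ONH the values of these 3 genes over time were positive and missed the threshold. Rbm3 measured 31.4, 55.5, 99.9 and 58.4 CPM at 7 days and 71.9 to 158 CPM (median 103) at 30 days, with a log2FC of 0.88 ± 0.29 (adjusted p = 0.239). Srsf5 measured 135, 141, 187 and 108 CPM at 7 days and 171 to 267 CPM (median 196) at 30 days, with 0.53 ± 0.18 (adjusted p = 0.245). Rbm8a measured 72.2, 93.6, 140 and 83 CPM at 7 days and 126 to 199 CPM (median 141) at 30 days, with 0.62 ± 0.21 (adjusted p = 0.239). The highest 7 day ONH library of each was library 5. The interactions of Rbm3, Srsf5 and Rbm8a were 0.08 ± 0.33, 0.31 ± 0.22 and -0.32 ± 0.23 (adjusted p = 0.962, 0.618 and 0.616).

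Scaf11 and Srsf5 went opposite ways in the ONP and were each called in 3 comparisons. The 150 bases before their RefSeq start sites are shown (GRCm38.p6, 5′ to 3′ on the strand of the gene). The windows of Qk and Ptbp2 were also looked at and were left out, because all 150 bases lay in exons of their own gene. Capitals mark the GC box GGGCGG and the ETS core CCGGAAG, on either strand. The windows are chr15:96460844-96460993 for Scaf11 and chr12:80945349-80945498 for Srsf5, of which 48 bases of the second lie in an exon of Gm20337 on the other strand.

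Scaf11: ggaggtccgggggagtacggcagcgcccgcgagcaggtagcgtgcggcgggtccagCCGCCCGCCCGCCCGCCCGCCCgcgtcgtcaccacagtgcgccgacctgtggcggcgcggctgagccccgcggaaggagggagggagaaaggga

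Srsf5: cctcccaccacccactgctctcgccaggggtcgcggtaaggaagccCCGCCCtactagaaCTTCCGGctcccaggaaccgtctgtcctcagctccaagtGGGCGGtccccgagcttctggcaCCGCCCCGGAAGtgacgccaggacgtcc

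The Scaf11 window was 78% G or C and held 5 GC boxes that overlapped each other and no ETS core. The Srsf5 window was 68% G or C and held 3 GC boxes and 2 ETS cores, with 1 of each sharing bases. RefSeq promoters were found for 77 of the 92 members, with none for Rbm3 or Celf4. In the 250 bases before the start, the GC box was present in 59.7% of the members and in 32.9% of 27025 genes, and the ETS core in 14.3% and 7.05%. The median share of G and C was 60.8% in the members and 52% in all genes. The shares of CCAAT (41.6% and 34.5%), TATAAA (11.7% and 13%) and CACGTG (9.09% and 6.05%) lay closer together. These are matches of letters, and no binding was measured.

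The falls over time in the ONP took in 3 of the 4 SCAF factors and 3 of the 4 CLK kinases, beside 9.21% of all genes tested. With library size alone as the scaling, only Scaf11 and Scaf1 of these kept the call, with all 6 still negative (adjusted p = 0.0539 for Clk1 to 0.177 for Clk3). With counts corrected for the length and GC content of genes, Scaf4 and the 3 CLK kinases lost it. The weakest log2FC of Clk3 under any setting was -0.07. Scaf1, which binds the C-terminal domain of RNA polymerase II, measured 10.2, 18.9, 15.4 and 15.8 CPM at 7 days and 5.85 to 11.2 CPM (median 8.11) at 30 days, and library 1 of 7 days lay within the later range. Its log2FC was -0.92 ± 0.20 (adjusted p = 0.00993). Scaf4 measured 13.3, 18.8, 24.1 and 15.4 CPM at 7 days and 9.94 to 14.2 CPM (median 13.3) at 30 days, with -0.57 ± 0.17 (adjusted p = 0.0403). Its relative Scaf8, which acts with Scaf4 against early transcript ends, stayed at -0.06 ± 0.13 (adjusted p = 0.768). In the ONH none of the 4 was called, with values from -0.27 (Scaf1) to 0.32 (Scaf11).

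Clk1 (ENSMUSG00000026034, chr1:58410189-58424066, minus strand), a kinase whose own transcript is kept in part as an intron-retained form, fell in the ONP and had a negative log2FC in the ONH. In the ONP it measured 25.7, 22.5, 24.8 and 18.4 CPM at 7 days and 12.9 to 19.6 CPM (median 16.4) at 30 days, with overlap through library 6 of 7 days. The ONP fall was -0.53 ± 0.14 (adjusted p = 0.0239). In the ONH it measured 28.5, 20.2, 18.7 and 27.9 CPM at 7 days and 10.1 to 14.2 CPM (median 12.8) at 30 days, and the groups did not overlap. The ONH value was -0.91 ± 0.18 and missed the threshold (adjusted p = 0.18). Clk2 and Clk3 fell in the ONP by log2FCs of -0.48 ± 0.15 (adjusted p = 0.0426) and -0.29 ± 0.08 (adjusted p = 0.0315), whereas Clk4 had 0.16 ± 0.12 (adjusted p = 0.404).

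**Figure D4:**
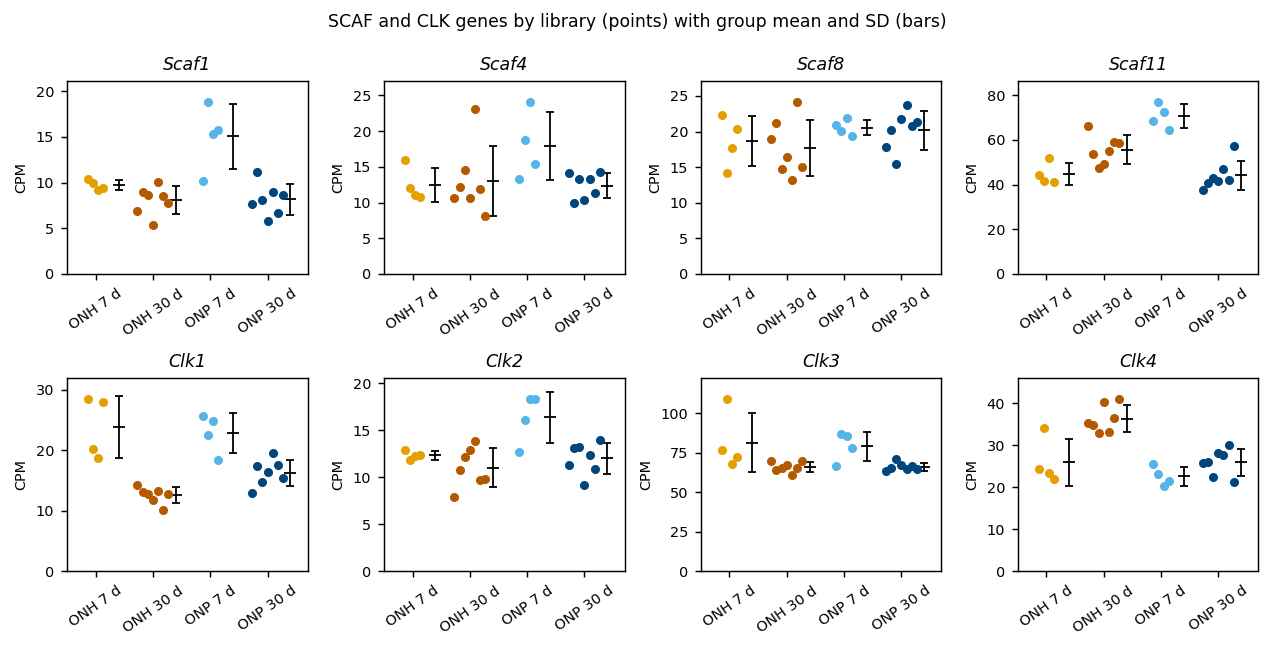
CPM of the 4 SCAF and 4 CLK genes by library, with each point a library and the bar at the right of each group its mean and SD (n = 4 at 7 days, n = 7 at 30 days). Clk1 lay at 10.1 to 14.2 CPM in the 30 day ONH and at 18.7 to 28.5 CPM in the 7 day ONH, Clk4 had its highest mean in the 30 day ONH, and Scaf8 overlapped across all groups.

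Of the hnRNPs, 3 of 20 fell in the ONP and none rose (15% called, beside 17% of all genes, with 9.21% of all genes lower). Hnrnpu, a nuclear scaffold protein, measured 307, 369, 336 and 358 CPM at 7 days and 209 to 286 CPM (median 255) at 30 days, so that the groups did not overlap (log2FC -0.52 ± 0.10, adjusted p = 0.00701). Hnrnpc measured 409, 402, 408 and 397 CPM at 7 days and 313 to 350 CPM (median 334) at 30 days, again without overlap (-0.32 ± 0.07, adjusted p = 0.0107). Hnrnpm, which binds GU-rich sequence, had -0.33 ± 0.10 (adjusted p = 0.038). Among the RBM proteins, Rbm28, a nucleolar protein related to yeast Nop4, fell by 0.51 on the log2 scale (SE 0.09, adjusted p = 0.00399).

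Celf4, a regulator best known from neurons, had the largest fall. It measured 12.3, 3, 3.48 and 4.37 CPM in the 7 day ONP and 0.685 to 2.39 CPM (median 1.58) in the 30 day ONP. The groups did not overlap, but library 1 of 7 days was far above the others, and the log2FC of -1.91 ± 0.42 (adjusted p = 0.0108) was -1.20 without it. Of 12 neuron markers, whose summed level was 257 ± 72.4 CPM (SD, n = 4) at 7 days and 144 ± 59.8 CPM (n = 7) at 30 days in the ONP with Tubb3 the most abundant, 10 were tested, 3 fell and 1 rose. Of the 12, 1 was at 0 in all 7 day ONP libraries. The part of these cells in the Celf4 values was not tested.

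Other splicing genes gave the setting in the ONP. Of 131 tested from a list of 135, 8 were higher at 30 days and 18 lower (19.8%, beside 17% of all genes), and the median log2FC was -0.08. Among SR protein kinases and SR-related cofactors, 0 of 20 were higher and 5 lower, with a median of -0.28. These included Son (-0.73 ± 0.16, adjusted p = 0.00997), Thrap3 (-0.51 ± 0.10, adjusted p = 0.00781) and Srrm2 (-0.41 ± 0.09, adjusted p = 0.00993), large SR-related proteins, the first and last of them structural proteins of nuclear speckles. Core spliceosome genes were called in both directions, 7 higher and 8 lower of 60, with the U5 protein Prpf8 at -0.85 ± 0.13 (adjusted p = 0.00171) and Snrnp25 at 0.88 ± 0.16 (adjusted p = 0.00374). Of 36 further regulators 1 was higher and 4 lower, among them Sfpq (-0.68 ± 0.13, adjusted p = 0.00556), and of 15 NMD factors Casc3 alone was called (-0.61 ± 0.17, adjusted p = 0.0322).

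Several ONP calls lay near the threshold. Clk2, Scaf4, Hnrnpm and Rbm8a were each kept in 2 of 11 fits with a library left out, and Clk3 was kept in 4, Clk1 in 8 and Ptbp2 in 9. Their highest adjusted p was 0.149 for Clk2, 0.148 for Hnrnpm and 0.0686 for Ptbp2 without library 6 of 7 days, 0.135 for Scaf4 without library 5, 0.101 for Rbm8a and 0.0787 for Clk1 without library 1, and 0.0967 for Clk3 without library 2. With counts corrected for the length and GC content of genes, Clk1, Clk2, Clk3, Scaf4, Hnrnpu, Hnrnpm and Rbm8a lost the call (adjusted p 0.0656 for Clk1 to 0.695 for Clk3). Clk1, Clk2, Clk3, Scaf4, Hnrnpm and Hnrnpc lost it with library size alone as the scaling, where the log2FC of Hnrnpc was -0.20. In the fit of all 4 groups, Hnrnpc, Ptbp2 and Hnrnpm were among those that lost it (adjusted p = 0.0877, 0.073 and 0.188).

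Within the ONH, no member was called between 7 and 30 days. Of 15668 genes tested 0% were called, with the lowest adjusted p at 0.07. At an unadjusted p under 0.05 there were 16 of 87 members (11 higher and 5 lower), beside 13.9% of all genes (7.1% higher and 6.8% lower). The groups did not overlap in 3 members (2.25% of all genes). Qk and Hnrnpdl lay higher at 30 days (1.71% of all genes) and Clk1 lower (0.543%). The median log2FC was -0.03 over the members and -0.02 over all genes. DESeq2 called Qk, Hnrnpdl and Clk1 (adjusted p = 0.000111, 0.013 and 0.000228), and limma-voom called none. The share of all genes that DESeq2 called is not given here, so these calls are not read as particular to the members. The study, which used DESeq2, reported genes that differed between these days in the ONH, in both directions.

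Over the same time in the ONH, the marker lists of several other cell types had negative medians, though edgeR called none of their genes. The median log2FC was -3.26 for surface epithelium, -1.68 for photoreceptors, -1.51 for endothelial and mural cells, -1.49 for fibroblasts and meningeal cells, -0.83 for pigment cells and -0.59 for neurons. It was 0.09 for astrocyte markers and 0.09 for microglia and macrophages. The summed level of the 12 endothelial and mural markers was 650 ± 447 CPM (SD, n = 4) at 7 days and 295 ± 82.7 CPM (n = 7) at 30 days, and that of the 8 fibroblast and meningeal markers 1186 ± 635 and 661 ± 170 CPM. Their part in the members' values was not tested.

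Hnrnpdl, an AU-rich element binding relative of Hnrnpd, measured 39.5, 30.5, 55 and 46.4 CPM in the 7 day ONH and 62 to 81.2 CPM (median 70.7) in the 30 day ONH, with a log2FC of 0.72 ± 0.17 (adjusted p = 0.185). Hnrnpu measured 287, 233, 203 and 305 CPM at 7 days and 156 to 220 CPM (median 193) at 30 days, with overlap, and had -0.46 ± 0.15 (adjusted p = 0.223). Clk4 had 0.49 ± 0.16 (adjusted p = 0.236), with overlap through library 3. Without library 5 of the 7 day ONH, 5 members were called, 4 higher and 1 lower, among them Qk (0.77, adjusted p = 0.0452), Hnrnpdl (0.89, adjusted p = 0.0428) and Clk1 (-1.0, adjusted p = 0.0428). Over all genes, the ONH fits with a library left out called 0 to 167. Of the 130 other splicing genes tested in the ONH edgeR called none, with 23 at an unadjusted p under 0.05, and their median was 0.10. The lowest p-values of their groups were those of Sf3b3 (-0.81 ± 0.19, adjusted p = 0.185), Srrm1 (0.72 ± 0.18, adjusted p = 0.189), Elavl4 (2.6 ± 0.57, adjusted p = 0.18) and Casc3 (-0.67 ± 0.19, adjusted p = 0.189).

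**Figure D5:**
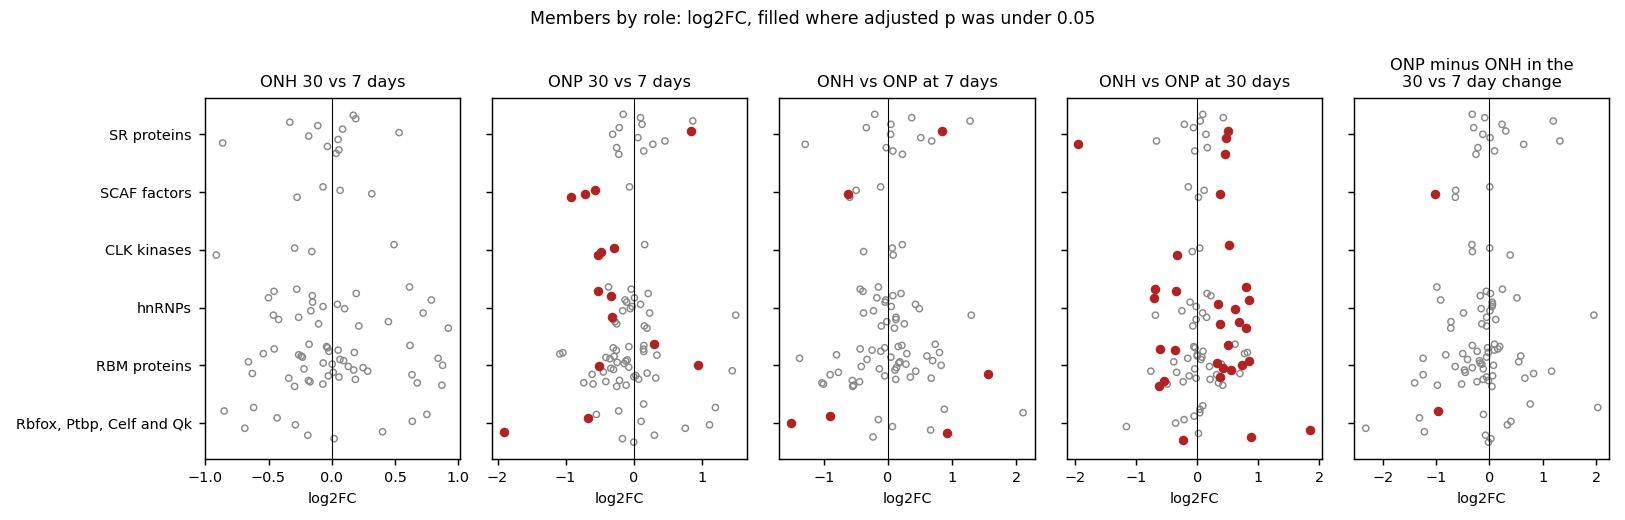
log2FC of each tested member (horizontal axis, scaled per panel) by role in the 4 pairwise comparisons and the interaction, with each point a gene, filled where edgeR's adjusted p was under 0.05. No member was called in the ONH over time, 15 in the ONP, 6 between the regions at 7 days, 31 at 30 days and 2 in the interaction.

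Between the regions at 7 days, 6 of 87 members were called, beside 13.2% of all genes. Srsf5, Celf2 and Rbm20 were higher in the ONH (background 6.34%), and Qk, Ptbp2 and Scaf11 were lower (background 6.81%). Groups without overlap were found in 4 members that were higher in the ONH (9.88% of all genes) and 6 that were lower (11.9%). The median over the members was 0.05, beside 0.07 over all genes. With library size alone as the scaling, which shifted all genes by a median of 0.11, 4 were higher and 2 lower. Leaving out a library gave 2 to 9 calls, beside 1102 to 2379 over all genes.

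Beside these calls, 9 of 10 photoreceptor markers (median log2FC 5.29) and 7 of 7 pigment cell markers (6.22) were higher in the 7 day ONH, and 2 of 5 oligodendrocyte precursor markers (-0.92) and all 12 oligodendrocyte markers (-1.88) were lower. Of 10 neuron markers tested, 4 were higher and 1 lower (median log2FC 1.60). The pigment cell sum was 668, 385, 838 and 1470 CPM in the ONH and 116 to 142 CPM in the ONP. The part of other cell types in the members' differences was not tested. Of 12 astrocyte markers, 1 was higher in the ONH and 2 lower (median log2FC 0.03).

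Celf2, a CUG-binding regulator, measured 96.1, 81.2, 47.4 and 104 CPM in the 7 day ONH and 49.1, 46.4, 37.5 and 42.8 CPM in the 7 day ONP, with library 5 of the ONH within the ONP range. Its log2FC was 0.92 ± 0.23 (adjusted p = 0.025). Rbm20, best known for titin splicing in heart, measured 8.46, 7.66, 11.4 and 4.58 CPM in the ONH and 3.24, 2.05, 3.73 and 2.19 CPM in the ONP. The groups did not overlap, and the log2FC was 1.55 ± 0.42 (adjusted p = 0.0338). Srsf5 did not overlap either and had 0.84 ± 0.20 (adjusted p = 0.0196). Qk and Ptbp2 kept their calls in 8 of 8 fits with a library left out, Srsf5 in 6, Celf2 in 2, and Rbm20 and Scaf11 in 1. Their highest adjusted p was 0.0878 for Celf2 (without library 5 of the ONP), 0.106 for Rbm20 and 0.0752 for Srsf5 (without library 6 of the ONP), and 0.102 for Scaf11 (without library 2 of the ONP). With the library number as a replicate block, Qk and Ptbp2 kept their calls. Srsf5, Celf2, Rbm20 and Scaf11 lost them (adjusted p = 0.0996, 0.105, 0.162 and 0.244), at log2FCs of 0.79, 0.90, 1.39 and -0.55.

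Of the 130 other splicing genes tested at 7 days, 3 were higher in the ONH and 5 lower (6.15%, beside 13.2% of all genes). The U1 cofactor Luc7l was higher (0.76 ± 0.18, adjusted p = 0.0199), as was Msi2 (1.07 ± 0.27, adjusted p = 0.0279). Elavl3 (-2.20 ± 0.35, adjusted p = 0.0026) and Elavl4 (-2.90 ± 0.61, adjusted p = 0.0108), which neurons also express, were lower. The neuron markers tested had a median log2FC of 1.60, while their list summed to 230 ± 57.5 CPM (SD, n = 4) in the ONH and 257 ± 72.4 CPM (n = 4) in the ONP. Tubb3, the most abundant, averaged 67.1 and 215 CPM. The part of neurons in the values of Elavl3 and Elavl4 was not tested. None of the 60 core spliceosome genes was called (11 at an unadjusted p under 0.05).

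At 30 days, 31 of 89 members differed between the regions (34.8%, beside 41.8% of all genes tested). Of these, 21 were higher in the ONH (background 21.8%) and 10 lower (background 20%). At an unadjusted p under 0.05 there were 39 members, beside 49.6% of all genes. The groups did not overlap in 4 members that were higher in the ONH (8.48% of all genes) and 3 that were lower (8.04%). The median log2FC was 0.05 over the members and -0.01 over all genes. Short genes were higher in the 30 day ONH: genes under 2486 exonic bases deviated by a mean of 0.22 in its libraries and by -0.07 in those of the ONP. With counts corrected for length and GC content, 27 members were higher and 6 lower, with 27 of the 31 calls shared.

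Markers of other cell types differed between the regions too. At 30 days, 10 of 10 photoreceptor markers and 7 of 7 pigment cell markers were higher in the ONH, with median log2FCs of 6.05 and 5.50, and 4 of 5 oligodendrocyte precursor markers were lower (median -1.79), beside the 10 of 12 oligodendrocyte markers given above. The pigment cell sum was 270 to 845 CPM and 77.4 to 119 CPM, with Rlbp1, which glia also express, the most abundant in both. No photoreceptor or pigment cell marker was at 0 in all libraries of a group. The part of other cell types in the members' differences was not tested. Of 12 astrocyte markers, 2 were higher in the ONH and 4 lower (median log2FC -0.04). Of 5 nuclear retained long RNAs tested, 1 was higher and 0 lower (median log2FC 0.68).

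Among the SR proteins and kinases, Srsf5, Srsf1, Srsf3 and Clk4 were higher in the ONH at 30 days and Srsf12 and Clk1 lower. Srsf5 measured 171 to 267 CPM (median 196) in the ONH and 122 to 198 CPM (median 143) in the ONP, with overlap through ONP replicate 4 (log2FC 0.51 ± 0.12, adjusted p = 0.00238). Srsf1, the founding SR protein, had 0.45 ± 0.11 (adjusted p = 0.00321). Clk4 measured 33 to 41.1 CPM (median 35.2) in the ONH and 21.2 to 30.2 CPM (median 26.1) in the ONP, without overlap (0.53 ± 0.10, adjusted p = 0.000895). Clk1 went the other way (-0.33 ± 0.12, adjusted p = 0.0417), with medians of 12.8 and 16.4 CPM. Srsf12, an SR protein that represses splicing, was near the limit of detection in the ONH, at 0.043 to 2.67 CPM (median 0.351), and at 1.83 to 4.22 CPM (median 2.33) in the ONP. Its fitted log2FC of -1.95 ± 0.65 (adjusted p = 0.0249) rests on few counts.

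The hnRNPs and RBM proteins split into both directions. Of 20 hnRNPs, 7 were higher in the ONH and 3 lower (50% called), and of 37 RBM proteins tested 7 were higher and 4 lower (29.7%). Of all genes tested, 41.8% were called, 21.8% higher and 20% lower. Rbm39, a U2AF-related coactivator, measured 115 to 226 CPM (median 146) in the ONH and 77 to 99.2 CPM (median 83.4) in the ONP. The groups did not overlap, and the log2FC was 0.86 ± 0.14 (adjusted p = 0.000166). Hnrnpl, which binds CA repeats, measured 32 to 70.9 CPM (median 38) in the ONH and 18.8 to 34.8 CPM (median 25.7) in the ONP (0.85 ± 0.19, adjusted p = 0.00189). Its paralogue Hnrnpll went the opposite way, at 22.9 to 37.3 CPM (median 29.3) in the ONH and 40.2 to 59.1 CPM (median 50.6) in the ONP, without overlap (-0.71 ± 0.14, adjusted p = 0.00109).

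A like split was found in the paralogues Hnrnpul2 and Hnrnpul1. Hnrnpul2 measured 25.6 to 71 CPM (median 37.7) in the ONH and 20.5 to 30.3 CPM (median 23.2) in the ONP, a log2FC of 0.80 ± 0.19 (adjusted p = 0.00304). Hnrnpul1 measured 13.9 to 20.1 CPM (median 17.2) in the ONH and 19.7 to 37.2 CPM (median 32.8) in the ONP, a log2FC of -0.70 ± 0.15 (adjusted p = 0.0016). Both pairs of groups overlapped, with a single ONP replicate of Hnrnpul1 inside the range of the ONH. Hnrnpu was also lower in the ONH (-0.35 ± 0.10, adjusted p = 0.0135), and Hnrnpa3 was higher (0.68 ± 0.13, adjusted p = 0.000767). Of the words of Hnrnpa3, 28.1% are shared with other genes, most with Gm5641.

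Rbm25, which helps U1 snRNP choose 5′ splice sites, was higher in the ONH (0.55 ± 0.12, adjusted p = 0.00146), as were Rbm3 (0.73 ± 0.16, adjusted p = 0.0016) and Rbm8a (0.51 ± 0.11, adjusted p = 0.00194). Rbm8a measured 126 to 199 CPM (median 141) in the ONH and 92.3 to 122 CPM (median 110) in the ONP, without overlap. The exon-skipping regulators Rbm10 and Rbm5 were lower in the ONH. Rbm10 measured 18 to 27.6 CPM (median 21.1) there and 28 to 42.9 CPM (median 36.6) in the ONP (-0.62 ± 0.13, adjusted p = 0.00123), though 53.5% of its words are shared with other genes, most with Gm12799. Rbm5 measured 25.4 to 50.1 CPM (median 43.2) and 52.7 to 93.9 CPM (median 60.1), again without overlap (-0.61 ± 0.16, adjusted p = 0.00637). Rbm14 (-0.55 ± 0.18, adjusted p = 0.0213) and Rbm4b (-0.37 ± 0.11, adjusted p = 0.0136) were lower as well. Of the words of Rbm4b, 35.6% are shared with other genes, most with Gm37206.

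In the tissue-specific group, Celf2 and Celf4 were higher in the ONH at 30 days and Celf1 lower. Celf2 measured 51 to 89.7 CPM (median 66.3) in the ONH and 32.8 to 56.5 CPM (median 35.4) in the ONP, with overlap through ONP replicate 7 (0.88 ± 0.16, adjusted p = 0.000389). Celf4 measured 2.32 to 10.9 CPM (median 5.21) and 0.685 to 2.39 CPM (median 1.58), a log2FC of 1.86 ± 0.37 (adjusted p = 0.00098). Of the neuron markers tested beside it, 4 of 10 were higher in the ONH and 2 lower, with a median log2FC of 1.11. The mean log2 CPM over the 12 markers was 2.22 ± 0.65 (SD, n = 7) in the ONH and 0.68 ± 0.30 (n = 7) in the ONP. Their summed levels were 145 ± 52.6 CPM and 144 ± 59.8 CPM, of which Tubb3 took 48.4 and 115 CPM. The median and the mean log2 level lay in the direction of Celf4, and the part of neurons in its values was not tested. Celf1 had -0.24 ± 0.09 (adjusted p = 0.0496). The 9 further members called higher in the ONH (Hnrnpa0, Srsf3, Hnrnph1, Scaf11, Rbm17, Rbm27, Hnrnpa2b1, Hnrnph3 and Rbm34) had log2FCs of 0.32 to 0.80.

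Other splicing genes differed between the regions at 30 days in 71 of 130 (54.6%, 48 higher and 23 lower in the ONH), beside 41.8% of all genes. SR protein kinases and SR-related cofactors had a median log2FC of 0.52, with 12 of 19 higher and 2 lower. Srrm2 (1.03 ± 0.14, adjusted p = 5.32e-05), Srrm1 (0.98 ± 0.14, adjusted p = 5.52e-05), Luc7l (0.83 ± 0.11, adjusted p = 2.32e-05) and Luc7l3 (0.87 ± 0.16, adjusted p = 0.000402) led them. Of 60 core spliceosome genes 22 were higher and 6 lower, led by the small proteins Lsm4 (1.0 ± 0.14, adjusted p = 5.12e-05) and Sf3b5 (0.87 ± 0.12, adjusted p = 6.26e-05). Of 15 NMD factors, 6 were higher and 3 lower, with Smg6 at 0.82 ± 0.14 (adjusted p = 0.000275) and Casc3 at -0.79 ± 0.14 (adjusted p = 0.000295). Of 36 further regulators, 8 were higher and 12 lower.

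Most of the named calls at 30 days held in all 14 fits with a replicate left out. The exceptions were Celf1, kept in 4 (adjusted p up to 0.113 without ONH replicate 3), Clk1, kept in 6 (up to 0.0779 without ONP replicate 6), and Srsf12, kept in 13 (0.05 without ONP replicate 6). Under the other settings, Clk1 lost its call in 6 of 10 (adjusted p up to 0.19, log2FC to -0.20) and Celf1 in 4 of 10 (up to 0.306, log2FC to -0.12). Hnrnpu and Rbm4b each lost it once, with counts corrected for length and GC content (adjusted p = 0.0655 and 0.0585), as did Clk1 and Celf1 there. The interaction calls of Qk and Scaf11 held in all 22, with an adjusted p of at most 0.0244 for Qk and 0.0407 for Scaf11.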

How the data were processed

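Per the labels and the methods of the study, the authors immunoprecipitated HA-tagged ribosomes, made cDNA with a SMART-Seq HT kit, which does not mark strand, aligned reads to mm10 with STAR 2.6.1d and quantified Ensembl release 94 transcripts with Salmon 0.14.2 (versions also in the submitters' processing notes). The authors deposited estimated counts per gene as whole numbers, used as they are, and a variance-stabilized table (DESeq2 1.34.0, R 4.1.0) that was not used. All 22 libraries were used, and no library was a copy of another (at least 96.3% of tested genes differed in count between any 2).

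Counts were filtered with edgeR's filterByExpr, scaled by TMM and tested with edgeR 4.0.16 (quasi-likelihood, R 4.3.3) across all genes of each comparison's groups, with Benjamini-Hochberg adjustment. The interaction was fitted on all 4 groups. CPM values use TMM-scaled library sizes, and 3 counts were taken as the floor, which covers counting error only. Totals of 16292489 to 33307092 counts set the depth. The main edgeR fit of each comparison was tested on simulated data, and the alternative fits were not. The members and lists were chosen with earlier results of these data known. Named in each comparison were all members past the threshold where at most 24 passed, otherwise the 12 with the lowest p in each direction, and the 5 with the lowest p where fewer than 4 passed. Alternatives were DESeq2 1.42.0, limma-voom 3.58.1, other scalings, filters and fits, and each library left out.

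Positions (92 of 92 members), exon lengths and transcript kinds came from GENCODE M21 (GRCm38, Ensembl 96) and promoters from RefSeq (GRCm38.p6). Numbers of the 7 day libraries are those of the table's columns, which do not carry the numbers of the sample titles. The levels of some marker genes are not reported here.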

Additional observations from a re-analysis of the deposited data

Results flagged for a closer look

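Of 140 groups of values of the named members, 6 had a library far from the rest, and chance flags about 1 in 20 groups. In the 7 day ONH, library 6 was the lowest for Celf4, at 4.99 CPM beside 9.63 to 11 CPM in the others. Library 5 of the same group, in which short genes were high, was the lowest for Hnrnpll (22.7 CPM beside 46.3 to 53.2 CPM) and the highest for Srsf1 (95.2 CPM beside 69.9 to 73.2 CPM). In the 7 day ONP, library 2 was the highest for Hnrnpul1 (35.7 CPM beside 26.6 to 27.3 CPM) and library 5 the lowest for Hnrnpul2 (20.6 CPM beside 33.3 to 35.9 CPM). In the 30 day ONH, replicate 6, another library with high short genes, was the lowest for Rbm5 (25.4 CPM beside 39.9 to 50.1 CPM).

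The change from 7 to 30 days differed between the regions in 2 members by edgeR's interaction term, with a difference of log2FCs (ONP minus ONH) of -1.03 for Scaf11 and -0.972 for Qk.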

How the results depend on the processing

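No named call changed direction under any setting. In the ONH over time, 0 members were called, against 3 with DESeq2 and 4 with all 4 groups in 1 fit, and 0 to 5 with a library left out (5 without library 5 of 7 days). In the ONP, 15 became 9 without a filter beyond 1 count and 8 with all 4 groups in 1 fit, and 8 to 17 with a library left out (8 without library 2 of 7 days). Between the regions at 7 days, 6 became 11 with DESeq2 and 13 with all 4 groups in 1 fit, and 2 to 9 with a library left out (2 without library 2 or 6 of the ONP, 9 without library 6 of the ONH). At 30 days the 31 calls became 27 to 33 and the interaction's 2 became 2 to 3 with a library left out. Over all genes, the fits with a library left out called 0 to 167 in the ONH and 1439 to 3214 in the ONP. They called 1102 to 2379 between the regions at 7 days, 5671 to 6416 at 30 days and 22 to 318 in the interaction. The counts over all genes under the other settings of this section are not given here, so moves of the members are not told apart from moves of the whole fit. The causes were not tested.

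Correcting counts for the length and GC content of genes, chosen after seeing the data, gave 0, 10, 33, 6 and 2 calls in the ONH, in the ONP, at 30 days, at 7 days and in the interaction. Leaving out the 3 libraries of 30 days with the highest microglia markers, also chosen after seeing the data, gave 18 calls in the ONP, 27 at 30 days and 2 in the interaction.

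No source used here ties the replicate numbers of the 30 day pools to mice. Deviations of same-numbered ONH and ONP pools from their group means correlated at 0.0769 to 0.471 over 7 pairs (median 0.206, beside -0.0864 for other numbers), and 3 of 7 ONH pools correlated best with their own number. With the number as a replicate block, 33 members were called beside 31 (20 higher, 13 lower, 29 shared), with Clk1 at an adjusted p of 0.0859. At 7 days the numbers 1, 5 and 6 of the table's columns occur in both regions, and these pools correlated at 0.0209, 0.0124 and 0.146 (median -0.0113 for other numbers). With that number as a replicate block, a fit chosen after seeing the data, 2 members were called beside 6, Qk (adjusted p = 0.0384) and Ptbp2 (0.0433).

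Over 53 values of named members, settings other than leaving a library out kept the call or its absence in 434 cases, with 52 calls lost and 7 gained. Ptbp2 in the interaction passed with DESeq2 (adjusted p = 0.0138). Members at a few counts, such as Srsf12 in the ONH, are limited by depth.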

Other observations

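Of 67 members that averaged at least 10 CPM, 6 differed over 3-fold between libraries of at least 1 group (Rbm33, Hnrnpd, Srsf9, Srsf2, Rbm15b and Rbm3), and the first 5 of them in at least 2 groups. This spread was looked at after the values were seen, and its share over all genes was not computed, so it is not read as particular to the members. Hnrnpd is an AU-rich element binding protein, and Srsf2 and Srsf9 are SR proteins. Srsf2 measured 113, 101, 98.4 and 24.5 CPM in the 7 day ONH, 31.7, 28.1, 78.7 and 78.1 CPM in the 7 day ONP, 23.3 to 69.5 CPM (median 42.6) in the 30 day ONH and 31.2 to 101 CPM (median 88.1) in the 30 day ONP. Hnrnpd measured 57.9, 57.4, 55.3 and 15.5 CPM in the 7 day ONH, 9.17, 14.8, 25 and 28.8 CPM in the 7 day ONP, 22.6 to 49.1 CPM (median 27.2) in the 30 day ONH and 13.1 to 97.2 CPM (median 70) in the 30 day ONP. Srsf9 measured 69.7, 111, 121 and 17.8 CPM in the 7 day ONH, 17.7, 21.5, 47 and 49.7 CPM in the 7 day ONP, 28.9 to 137 CPM (median 50.3) in the 30 day ONH and 23.4 to 95 CPM (median 68.2) in the 30 day ONP. Library 6 of the 7 day ONH and libraries 1 and 2 of the 7 day ONP were the low ones of their groups for all 3 genes, as were replicates 1 and 2 of the 30 day ONP. Rbm33 ranged most, at 1.58, 16.8, 33.7 and 7.79 CPM in the 7 day ONH. These 4 genes were called in no comparison. Of the words of Srsf2, 23.1% also occurred in other genes, most in Mettl23, and the kit does not mark strand.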
